A study of Mus musculus with 9 samples.

Results

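Liver transcripts of 34 coagulation and fibrinolysis genes were examined, of 24008 genes listed in the deposited count table. The genes were chosen by name, from knowledge of the pathway, and were divided by the cells known to make the protein into 22 hepatocyte-made genes and 12 made by stromal, endothelial, epithelial or immune cells. The livers came from 9 mice, 3 per group, with 1 whole-liver library per mouse. All groups received a high-fat, high-carbohydrate diet that produces non-alcoholic steatohepatitis (NASH), a fatty liver with inflammation and cell injury. The methods give an age of 8 weeks for wild-type mice of another experiment and no starting age for these groups. The reporting summary of the study names mice aged 8 weeks in general. Flox mice, labelled WT, were the controls and carry floxed Irf4 alleles according to the methods. F4MKO mice lack Irf4, a transcription factor, in skeletal muscle, through a Cre driven from a myosin light chain gene. F4MKO + FSTL1 mice are F4MKO mice in which follistatin-like 1 (FSTL1), a secreted glycoprotein, was overexpressed from an AAV8 vector with a muscle creatine kinase promoter injected into the gastrocnemius, 4 weeks before collection. The methods give AAV-GFP to the other groups, while the labels name no vector for them, and the length of the diet is given as 24 weeks in one place and 12 weeks in another. Since FSTL1 was overexpressed on the F4MKO background alone, comparisons of F4MKO + FSTL1 with Flox combine deletion and overexpression.

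Blood clots when thrombin cuts fibrinogen into fibrin. Thrombin is made from prothrombin by factor Xa with its cofactor factor Va, and factor Xa is produced by tissue factor with factor VIIa, or by factor IXa with factor VIIIa, downstream of factor XI and the contact system of factor XII, plasma kallikrein and high-molecular-weight kininogen. Antithrombin, heparin cofactor II, the tissue factor pathway inhibitors and the protein C pathway restrain the cascade, and plasmin, cut from plasminogen by tissue-type or urokinase-type plasminogen activator, dissolves fibrin. Hepatocytes secrete most of the soluble factors, whereas the activators, their receptor and the membrane-bound receptors are made mainly by other cells. In livers with chronic injury, clotting factors in plasma serve as a readout of the synthetic function of hepatocytes, and plasminogen activators act in matrix turnover. The counts used here measure RNA and not plasma levels.

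All 34 genes had enough counts to be tested, among 14379 genes tested in all. Library totals ran from 20656976 to 24322984 counted reads, of which the genes of this pathway took between 2.15% and 2.68%. Replicate libraries differed by far more than sampling noise, with a chi-square per degree of freedom of at least 22.2, so none was a copy of another. Irf4 in liver does not check a deletion in muscle. Its counts were between 101 and 132 in Flox, between 120 and 130 in F4MKO, and 10, 92 and 116 in F4MKO + FSTL1 libraries. F4MKO replicate 1 had the largest normalization factor, 1.17, against 0.927 to 1.03 in the other libraries. Its summed level of 8 cholangiocyte markers, 446 CPM (read counts scaled to a common library size, with TMM factors here and throughout), was also the highest of the 9 libraries.

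The hepatocyte-made genes covered a wide range of levels. On a per-length scale, as CPM per kilobase of transcript, Fga, encoding the fibrinogen alpha chain, was the most abundant in Flox livers at 1949 ± 30.7 (SD, n = 3), followed by Fgg, the gamma chain, at 1538 ± 111 and Kng1, a kininogen, at 1205 ± 50.5. Fgb, the fibrinogen beta chain, stood at 1056 ± 51.0 CPM per kilobase, F2, prothrombin, at 853 ± 44.1 and Plg, plasminogen, at 729 ± 42.3. Per kilobase, the levels of these 6 genes were set apart by more than their SDs. Those SDs cover mice and not the choice of transcript length. In Flox CPM without division by length, Fgb, at 4024, stood above Fgg, at 2607, and Kng1, at 2202. The fibrinogen chains alone took 1.13% to 1.17% of the counted reads in Flox. At the lower end, F7, Klkb1, F11 and Pros1 had 37.2 ± 7.46, 36.2 ± 0.589, 25.0 ± 2.79 and 17.2 ± 1.33 CPM per kilobase. Of these, F7 and Klkb1 differed by less than their SDs, while in CPM Klkb1 had 190 ± 3.09 and F7 69.2 ± 13.9.

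Transcripts of most of the 12 other genes were scarcer. Tfpi2, a Kunitz-type protease inhibitor, had 36.9 ± 6.80 CPM per kilobase and F2r, a thrombin receptor, 12.3 ± 2.63. Tfpi, the tissue factor pathway inhibitor, stood at 4.75 ± 0.170 and F3, tissue factor, at 3.27 ± 0.797. The remaining 8 were between 1.58 ± 0.292 for F8, factor VIII, and 0.132 ± 0.0165 for F13a1, the A subunit of factor XIII. The 12 genes together took 0.0122% to 0.0177% of the counted reads.

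**Figure D1:**
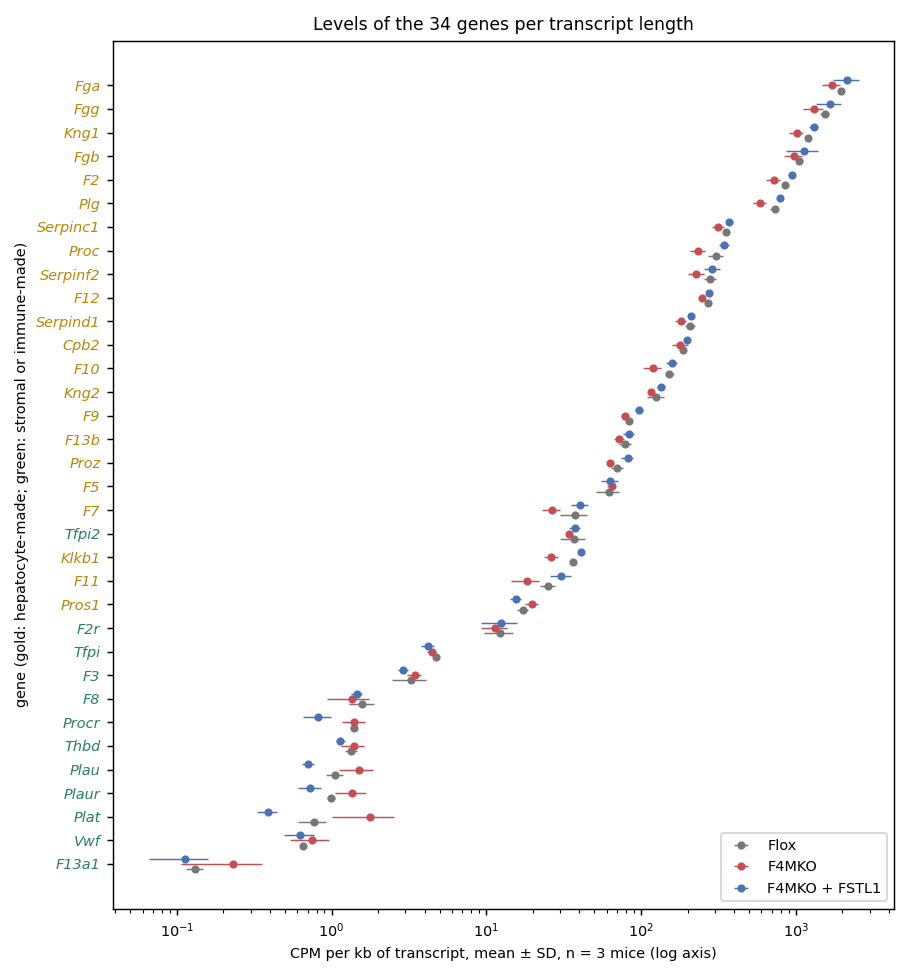
Mean ± SD of the 34 coagulation and fibrinolysis genes in each group, in CPM per kilobase of transcript on a log axis (n = 3 mice per group), with gene names in gold where hepatocyte-made and green otherwise. Hepatocyte-made genes span from Fga, at 1949 CPM per kilobase in Flox, to Pros1, at 17.2, and F13a1 is the lowest at 0.132.

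The effect of FSTL1 in mice without muscle Irf4 was examined by comparing F4MKO + FSTL1 with F4MKO. Of the 34 genes, 7 (20.6%) changed, at an adjusted p under 0.05 and a fold change above 1.5, beside 14.4% of all tested genes. F11, Klkb1 and F7, which encode circulating zymogens, were higher in F4MKO + FSTL1 livers. Plat, Plau, Plaur and Procr, which encode plasminogen activators and cell-surface receptors, were lower. All genes that rose belonged to the 22 hepatocyte-made genes (13.6% of them), beside 3.21% of all tested genes that rose, and all that fell belonged to the 12 others (33.3%), beside 11.2% of all tested genes that fell. At an adjusted p under 0.05 with no threshold on the fold change, 14 of 34 genes passed, beside 20.9% of all tested genes. Of these 9 were higher, beside 7.73%, and 5 lower, beside 13.1%. An unadjusted p under 0.05 was reached by 17 of 34 genes and by 35.3% of all tested genes.

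The direction differed between the gene classes. The log2 fold change was above 0 for 20 of 22 hepatocyte-made genes with a median of 0.33, and below 0 for 9 of 12 others with a median of -0.27, beside a median of 0.01 over all tested genes, of which 51.4% were above and 48.6% below 0. These counts of signs include genes that did not pass the test. Across the 34 genes, 22 had groups that did not overlap, beside 39% of all tested genes. Scaling depended on the method, since all tested genes together had 461 higher and 1609 lower calls with TMM factors and 215 higher and 2282 lower calls with library totals. With library totals the median over all genes moved to -0.18, 18 of 22 hepatocyte-made genes were above 0 and 12 of 12 others below 0, and the hepatocyte-made median lay 0.33 above the all-gene median, against 0.32 with TMM. The 3 zymogen genes then stayed at an adjusted p under 0.05 but below 1.5-fold, with log2 fold changes of 0.42 for F7, 0.54 for F11 and 0.45 for Klkb1.

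**Figure D2:**
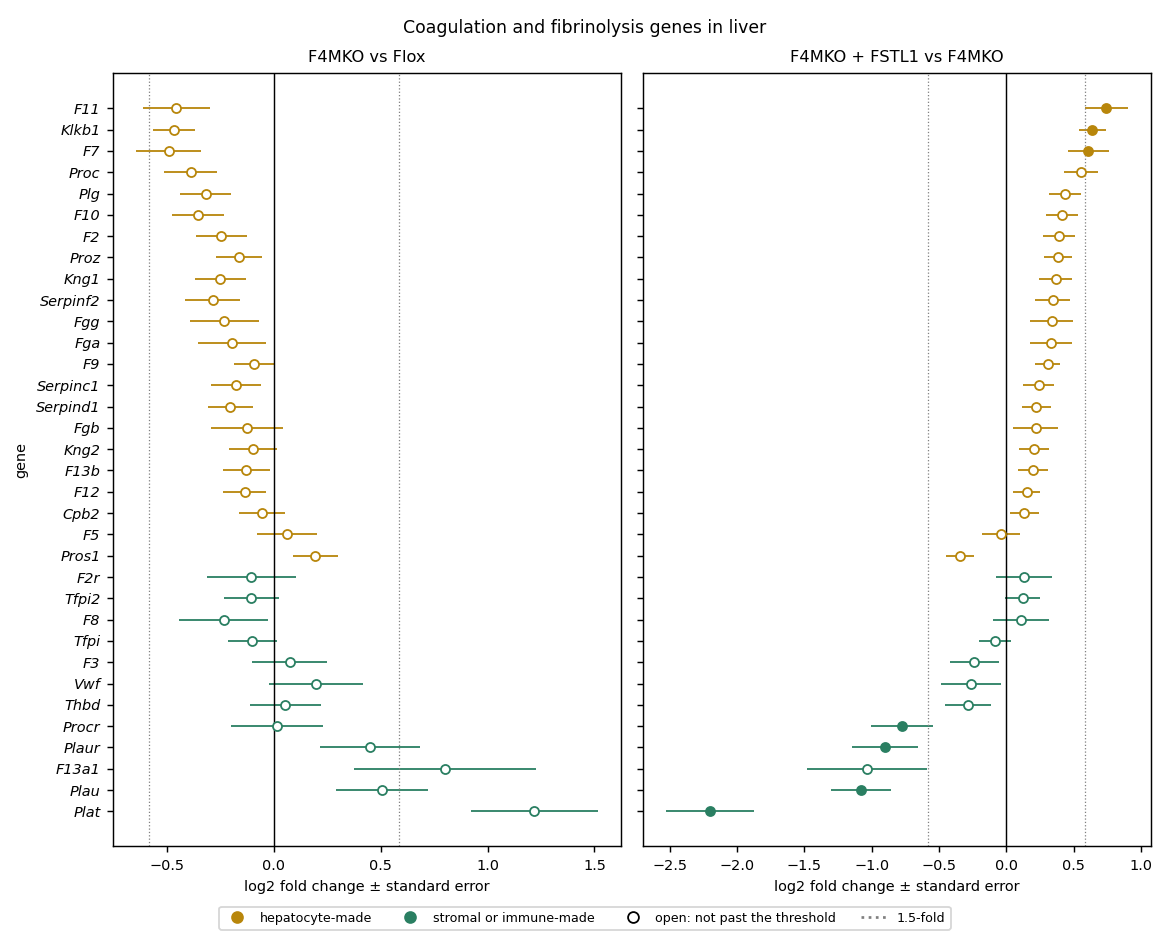
Log2 fold change ± standard error of each gene in F4MKO against Flox and in F4MKO + FSTL1 against F4MKO, from edgeR's quasi-likelihood fit to 9 libraries. Filled points passed the threshold, dotted lines mark a 1.5-fold change, and the comparisons share the F4MKO libraries. On the right, 20 of 22 hepatocyte-made genes lie above 0 and Plat lies lowest, at -2.20.

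The plasminogen activators and their receptor had the largest decreases among the genes that passed the threshold. Plat, tissue-type plasminogen activator (chromosome 8, 22757727 to 22782844, GRCm38), had 6.65, 2.89 and 3.95 CPM in F4MKO replicates 1 to 3 and 1.03, 0.817 and 1.10 CPM in F4MKO + FSTL1. Every F4MKO library was above every F4MKO + FSTL1 library, and F4MKO replicate 1 stood highest. Plat was 4.59-fold lower with FSTL1 (log2 fold change -2.20, SE 0.33, adjusted p = 0.00184, edgeR quasi-likelihood test with Benjamini-Hochberg adjustment). The call held in 9 of 9 fits with a library left out, with log2 fold changes between -2.43 and -1.80. The counts behind these values were 188, 69 and 99 in F4MKO and 22, 17 and 21 in F4MKO + FSTL1.

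Plau, urokinase-type plasminogen activator (chromosome 14, 20836660 to 20843385), had 4.49, 3.14 and 2.87 CPM in F4MKO and 1.82, 1.54 and 1.62 CPM in F4MKO + FSTL1. The groups did not overlap, and Plau was 2.11-fold lower with FSTL1 (log2 fold change -1.08, SE 0.22, adjusted p = 0.00745). It remained past the threshold in 9 of 9 fits with a library left out. Plaur, the receptor that holds urokinase at the cell surface (chromosome 7, 24462484 to 24475968), had 2.58, 1.80 and 1.76 CPM in F4MKO and 0.981, 1.01 and 1.31 CPM in F4MKO + FSTL1. It was 1.87-fold lower (log2 fold change -0.90, SE 0.25, adjusted p = 0.0242), again without overlap. The Plaur call was lost without F4MKO replicate 1 (adjusted p = 0.0970), F4MKO + FSTL1 replicate 1 (adjusted p = 0.0735) or F4MKO + FSTL1 replicate 2 (adjusted p = 0.0876).

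Plg, the substrate of both activators and a product of hepatocytes, went the other way. It had 1430, 1689 and 1712 CPM in F4MKO and 2055, 2228 and 2262 CPM in F4MKO + FSTL1. The groups did not overlap and the difference was 1.35-fold (log2 fold change 0.44, SE 0.12, adjusted p = 0.0241), below the fold threshold. Exons of Plg overlap those of Slc22a3 by 420 bases on the opposite strand, and the use of strand in counting is not stated, so a part of its reads is uncertain. Of the inhibitors of fibrinolysis, Serpinf2, encoding alpha2-antiplasmin, had 500 ± 59.1 CPM in F4MKO and 634 ± 71.3 CPM in F4MKO + FSTL1 (log2 fold change 0.34, adjusted p = 0.0838). Cpb2, whose activated product removes the lysines that plasminogen binds on fibrin, had 265 ± 31.9 and 291 ± 9.22 CPM (adjusted p = 0.409).

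Procr, the endothelial protein C receptor (chromosome 2, 155751117 to 155755471), had 2.58, 2.30 and 1.84 CPM in F4MKO and 1.07, 1.25 and 1.62 CPM in F4MKO + FSTL1. The groups did not overlap, although the lowest F4MKO library and the highest F4MKO + FSTL1 library were close. Procr was 1.71-fold lower (log2 fold change -0.77, SE 0.23, adjusted p = 0.0352). This call was the least stable of the 7 and held in 4 of 9 fits with a library left out. It was lost without Flox replicate 3 (adjusted p = 0.0513), F4MKO replicate 1 (0.118), F4MKO replicate 2 (0.0772), F4MKO + FSTL1 replicate 1 (0.109) or F4MKO + FSTL1 replicate 2 (0.110), with DESeq2 (0.0521) and with only the 6 libraries compared (0.0627).

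Other endothelial genes, and F3 and F13a1, gave values that did not pass the test. Thbd, thrombomodulin, which turns thrombin into an activator of protein C, had 5.17 ± 0.882 CPM in F4MKO and 4.25 ± 0.291 CPM in F4MKO + FSTL1 (adjusted p = 0.255). Vwf, von Willebrand factor, which tethers platelets and carries factor VIII, had 6.64 ± 1.88 and 5.55 ± 1.22 CPM (adjusted p = 0.434), and F8 had 13.2 ± 3.96 and 14.2 ± 1.15 CPM (adjusted p = 0.739). F3, the cellular trigger of clotting, had 6.43 ± 0.688 and 5.46 ± 0.396 CPM, without overlap (adjusted p = 0.375). F13a1, whose product crosslinks fibrin and is made by macrophages and megakaryocytes, had only 19, 14 and 37 counts in F4MKO and 5, 12 and 10 in F4MKO + FSTL1, without overlap (log2 fold change -1.03, SE 0.44, adjusted p = 0.120).

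Markers of other cell types moved in the same comparison. In whole liver, fewer cells of a type and less RNA per cell cannot be told apart. Of 10 stellate cell markers, 10 were lower in F4MKO + FSTL1 and 7 passed the threshold, with summed levels of 571 to 736 CPM in F4MKO and 288 to 395 CPM in F4MKO + FSTL1. Macrophage markers were lower for 9 of 10, with 7 past the threshold and summed levels of 706 to 793 against 317 to 513 CPM. Cholangiocyte markers were lower for 7 of 7 tested, with 6 past the threshold and sums of 167 to 446 against 37.1 to 55.5 CPM over the 8 listed. By contrast, 8 of 10 endothelial markers had log2 fold changes above 0 and 0 were called, with sums of 218 to 296 against 263 to 330 CPM and 2 at an unadjusted p under 0.05. Of the platelet and megakaryocyte markers only Itga2b had enough counts to be tested, and it did not pass (log2 fold change -0.15, adjusted p = 0.561). The part of these cell markers in the lower levels of Plat, Plau, Plaur and Procr was not tested.

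**Figure D3:**
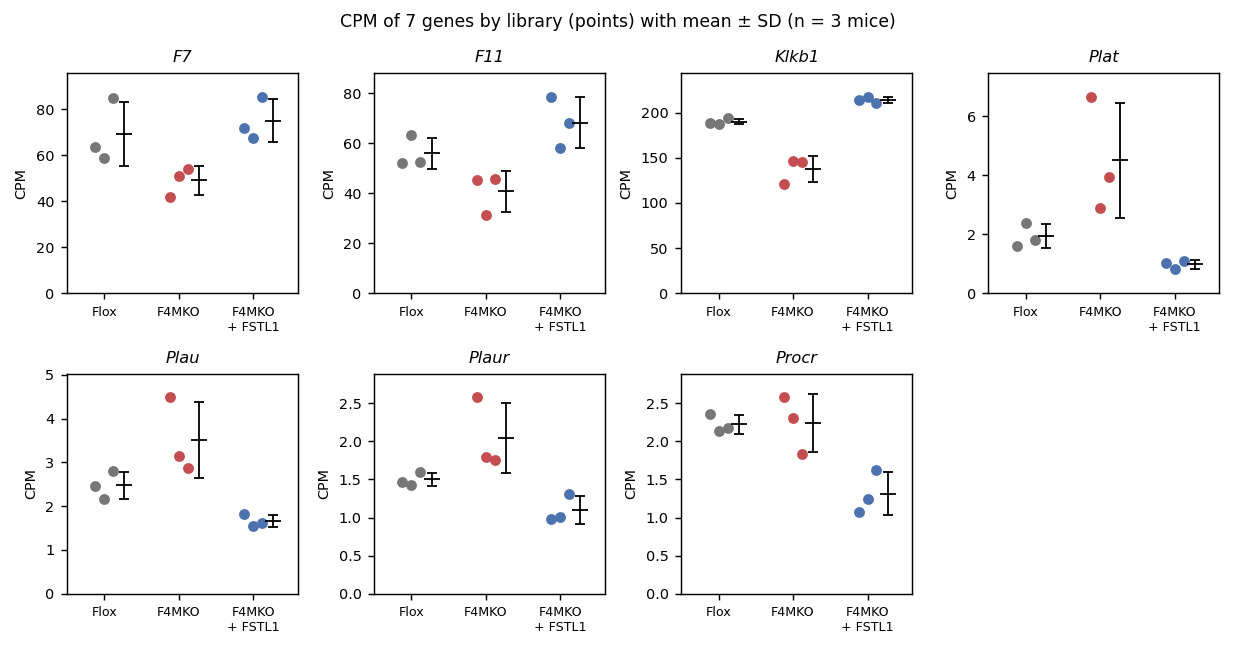
CPM of the 7 genes that differed between F4MKO + FSTL1 and F4MKO, with 1 point per library and mean ± SD beside each group (n = 3 mice). F7, F11 and Klkb1 are lowest in F4MKO, and Plat, Plau and Plaur are highest there, with replicate 1 at the top of the F4MKO group.

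Among the zymogens, F11, Klkb1 and F7 had the largest increases. F11, factor XI, had 45.3, 31.2 and 45.8 CPM in F4MKO and 78.6, 58.1 and 68.2 CPM in F4MKO + FSTL1. All F4MKO + FSTL1 libraries exceeded all F4MKO libraries, and F11 was 1.67-fold higher (log2 fold change 0.74, SE 0.16, adjusted p = 0.00823). Klkb1, plasma prekallikrein, had 121, 146 and 145 CPM in F4MKO and 214, 218 and 211 CPM in F4MKO + FSTL1, the tightest groups of the 7 genes relative to their means. It was 1.56-fold higher (log2 fold change 0.64, SE 0.10, adjusted p = 0.00210). F7, factor VII, had 42.1, 51.2 and 54.2 CPM in F4MKO and 72.1, 67.6 and 85.4 CPM in F4MKO + FSTL1, without overlap, and was 1.53-fold higher (log2 fold change 0.61, SE 0.15, adjusted p = 0.0164).

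These folds lie close to the threshold of 1.5. Without F4MKO replicate 2, F11 stood just under it, at 0.58 on the log2 scale (adjusted p = 0.0218), and without F4MKO replicate 1 Klkb1 had 0.55 (adjusted p = 0.00791). F7 was lost without F4MKO replicate 1 (log2 fold change 0.51, adjusted p = 0.0674) and without F4MKO + FSTL1 replicate 3 (0.51, adjusted p = 0.0475). Over all 34 genes, 3 passed without F4MKO replicate 1, of which 1 was hepatocyte-made, beside 1335 of all 14487 genes tested in that fit. Klkb1 shares 2267 exonic bases on the same strand with the annotated gene Gm45753, so its counts depend on how shared reads were assigned.

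The 3 zymogen genes lie on chromosome 8. F11 (45241174 to 45262031) and Klkb1 (45266689 to 45294859) are neighbours on the minus strand, 4.66 kb apart with no protein-coding gene between them. F7 (13026034 to 13035809) lies 1.5 kb from F10, which is 4.24 kb from Proz, all on the plus strand. The sequences upstream of their start sites are shown because the 3 genes rose together. They are RefSeq windows of 250 bases that end next to the start site (GRCm38.p6), written 5′ to 3′ on the strand of the gene, for F7 (chr8:13025784-13026033), F11 (chr8:45262032-45262281) and Klkb1 (chr8:45294836-45295085). Capitals mark matches to any of 5 motifs searched on both strands: the HNF1 site core GTTAAT, the HNF4 site CAAAGTCC, the IL-6 response element CTGGGAA, the AP-1 site TGANTCA and the C/EBP site TTGCNNAA.
F7: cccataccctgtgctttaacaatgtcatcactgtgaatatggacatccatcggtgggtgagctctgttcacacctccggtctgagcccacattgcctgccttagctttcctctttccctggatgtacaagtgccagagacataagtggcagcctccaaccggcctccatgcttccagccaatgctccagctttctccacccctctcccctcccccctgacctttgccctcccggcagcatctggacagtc
F11: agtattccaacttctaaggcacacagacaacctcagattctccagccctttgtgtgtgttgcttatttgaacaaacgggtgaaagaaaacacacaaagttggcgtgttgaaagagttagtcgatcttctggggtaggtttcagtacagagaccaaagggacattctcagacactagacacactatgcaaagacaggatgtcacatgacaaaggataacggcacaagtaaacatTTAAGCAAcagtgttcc
Klkb1: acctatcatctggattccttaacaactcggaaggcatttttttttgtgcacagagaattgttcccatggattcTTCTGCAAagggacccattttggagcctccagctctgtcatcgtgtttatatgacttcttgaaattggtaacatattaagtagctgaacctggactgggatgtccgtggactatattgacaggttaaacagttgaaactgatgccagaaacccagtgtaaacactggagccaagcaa
F7 had no match, and F11 and Klkb1 each had 1, a C/EBP site whose first base lay at position -17 in F11 and -177 in Klkb1, counted from the start site. C/EBP sites occurred in 9.56% of all 32851 windows. Windows were found for 27 of the 34 genes, and those of Plat and Plau were among the 7 not found. The 27 genes had 31 windows. Of these windows, C/EBP sites were in 8, AP-1 sites in 7, HNF1 cores in 6, IL-6 response elements in 5 and the HNF4 site in 0. The shares of all windows were 6.75% for AP-1, 6.43% for HNF1, 9.1% for the IL-6 element and 1.2% for HNF4. No match of one motif overlapped that of another. A match is a run of letters and not a measured binding site. Only these letters were searched, so a site spelled otherwise was missed, and a window without a match can still hold a site.

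The window of Plaur (chr7:24462233-24462482, plus strand) is shown for comparison, as a gene that fell.
Plaur: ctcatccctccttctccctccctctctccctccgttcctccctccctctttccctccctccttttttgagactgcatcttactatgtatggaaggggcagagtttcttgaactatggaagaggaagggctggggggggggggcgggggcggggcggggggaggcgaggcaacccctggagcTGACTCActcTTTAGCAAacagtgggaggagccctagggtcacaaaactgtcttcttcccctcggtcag
It held an AP-1 site at -69 and a C/EBP site at -59. Some genes had several windows, and counted by gene, AP-1 sites were found for 5 of 8 genes made outside hepatocytes and for 2 of 19 hepatocyte-made genes, and C/EBP sites for 2 of 8 and 6 of 19.

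The 4 genes of plasminogen, its activators and receptor passed an adjusted p under 0.05, beside 20.9% of all tested genes. So did all 7 genes of vitamin K-dependent proteins among the 34. These 7 genes encode prothrombin, factors VII, IX and X, protein C, protein S and protein Z, which carry carboxylated glutamates that bind calcium and phospholipid. All 7 had groups that did not overlap, beside 39% of all tested genes. In F4MKO + FSTL1, 6 were higher and Pros1 was lower, and only F7 exceeded 1.5-fold. With a library left out, the adjusted p reached 0.132 for F2, 0.109 for F10, 0.119 for F9, 0.152 for Pros1 and 0.0834 for Proz. For Proc and Plg it was at most 0.0412 and 0.0812. Proc, protein C, had 326, 373 and 404 CPM in F4MKO and 497, 551 and 573 CPM in F4MKO + FSTL1 and was 1.47-fold higher (adjusted p = 0.0101). It passed 1.5-fold without F4MKO replicate 3 (log2 fold change 0.63, adjusted p = 0.0116) and without F4MKO + FSTL1 replicate 1 (0.62, adjusted p = 0.0167).

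Procoagulant and anticoagulant members were both among the higher genes. F2 had 1254, 1494 and 1541 CPM in F4MKO and 1811, 1970 and 1828 CPM in F4MKO + FSTL1, a 1.31-fold difference (adjusted p = 0.0396). F10, factor X, had 256, 308 and 332 CPM against 386, 371 and 434 CPM (1.33-fold, adjusted p = 0.0341). F9, factor IX, was 1.24-fold higher, at 266 ± 15.4 against 215 ± 12.8 CPM (adjusted p = 0.0401), and Proz, protein Z, a cofactor in the inhibition of factor Xa, was 1.30-fold higher, at 276 ± 24.6 against 211 ± 1.66 CPM (adjusted p = 0.0258). Pros1, protein S, the cofactor of activated protein C, had 60.6, 62.1 and 72.2 CPM in F4MKO and 53.6, 46.0 and 53.7 CPM in F4MKO + FSTL1. It was 1.27-fold lower (log2 fold change -0.35, SE 0.10, adjusted p = 0.0375) and is also made by endothelial and immune cells.

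The fibrinogen chains gave values that did not pass the test, with a wide spread among F4MKO + FSTL1 libraries. Fga had 3899, 4299 and 5017 CPM in F4MKO and 4634, 5272 and 6725 CPM in F4MKO + FSTL1 (log2 fold change 0.33, SE 0.16, adjusted p = 0.158). Fgb had 3330, 3511 and 4226 CPM against 3506, 3987 and 5389 CPM (0.22, SE 0.17, adjusted p = 0.383), and Fgg had 1926, 2145 and 2587 CPM against 2337, 2714 and 3365 CPM (0.34, SE 0.16, adjusted p = 0.157). Each chain was highest in F4MKO + FSTL1 replicate 3, and the groups overlapped for each chain. The chains together took 1.07%, 1.02% and 1.22% of the counted reads in F4MKO and 0.980%, 1.14% and 1.43% in F4MKO + FSTL1 (exact two-sided permutation test, p = 0.7, adjusted p = 0.875 over 15 tests of shares and ratios, where the smallest p that 3 against 3 allows is 0.1).

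The chain genes form a cluster on chromosome 3, with Fgg (83007724 to 83015049) and Fga (83026076 to 83033627) on the plus strand and Fgb (83040141 to 83049863) on the minus strand. The upstream window of Fgb (chr3:83049864-83050113) is shown because it held matches to 4 of the 5 motifs, an AP-1 site at -173, an IL-6 response element at -91, a C/EBP site at -80 and an HNF1 core at -29.
Fgb: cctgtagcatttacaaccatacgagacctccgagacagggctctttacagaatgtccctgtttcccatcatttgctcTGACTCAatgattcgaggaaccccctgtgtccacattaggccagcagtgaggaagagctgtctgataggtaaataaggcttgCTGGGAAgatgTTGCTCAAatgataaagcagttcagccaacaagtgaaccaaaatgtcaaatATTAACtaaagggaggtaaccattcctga
The IL-6 response element and C/EBP and HNF1 sites are the letters by which acute-phase and liver-specific factors are known to recognise promoters. F13b, the carrier subunit of factor XIII, differed by 0.20 on the log2 scale in the same comparison (adjusted p = 0.216).

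**Figure D4:**
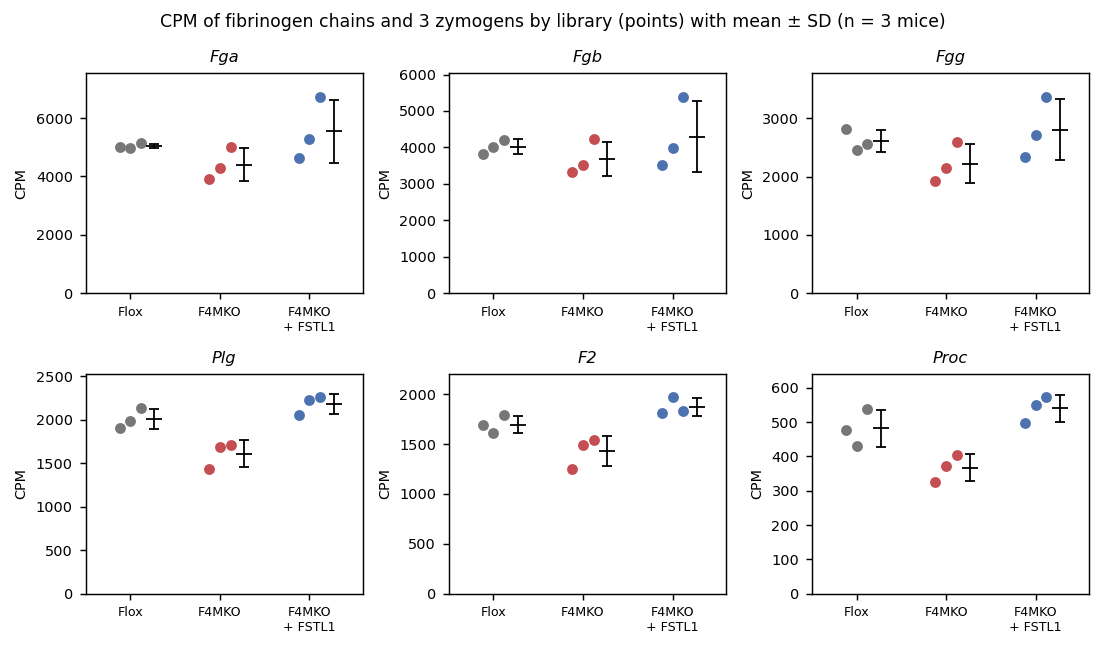
CPM by library, with mean ± SD (n = 3 mice per group), of the fibrinogen chains and of the zymogen genes Plg, F2 and Proc. Fga reaches 6725 CPM in F4MKO + FSTL1 replicate 3 and overlaps between groups, whereas Plg does not overlap between F4MKO, at most 1712 CPM, and F4MKO + FSTL1, at least 2055 CPM.

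The uncalled contact genes Kng1, Kng2 and F12, and F5, had log2 fold changes between -0.04 for F5 and 0.37 for Kng1. Kng1 had 1638, 1900 and 2018 CPM in F4MKO and 2228, 2403 and 2532 CPM in F4MKO + FSTL1 (log2 fold change 0.37, adjusted p = 0.0521). Kng2, its close paralog, had 266 ± 6.95 and 307 ± 17.95 CPM, and reads shared by the kininogens could have been split or dropped in counting. F12, factor XII, had 484 ± 22.02 and 537 ± 20.7 CPM, and F5, the cofactor of factor Xa, had 479 ± 28.4 and 466 ± 57.4 CPM. All 4 contact genes, Klkb1 included, had log2 fold changes above 0, beside 51.4% of all tested genes. Their groups did not overlap, beside 39% of all tested genes. Like Kng1, Kng2 (adjusted p = 0.205) and F12 (adjusted p = 0.299) did not pass the test.

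Coagulation inhibitors did not pass the test either. Serpinc1, antithrombin, had 1567 ± 149 CPM in F4MKO and 1851 ± 99.3 CPM in F4MKO + FSTL1 (log2 fold change 0.24), and Serpind1, heparin cofactor II, had 396 ± 32.7 and 462 ± 10.7 CPM (0.22). Serpinc1 exons overlap 2942 bases of Zbtb37 on the opposite strand. Tfpi had 8.98 ± 0.579 and 8.47 ± 0.776 CPM and Tfpi2 52.5 ± 2.18 and 57.1 ± 4.37 CPM. Hepatocyte markers outside the pathway had a median log2 fold change of 0.03, with 6 of 10 above 0 and only Serpina1c past the threshold, and summed to 69915 to 102693 CPM in F4MKO and 84266 to 100960 CPM in F4MKO + FSTL1.

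**Figure D5:**
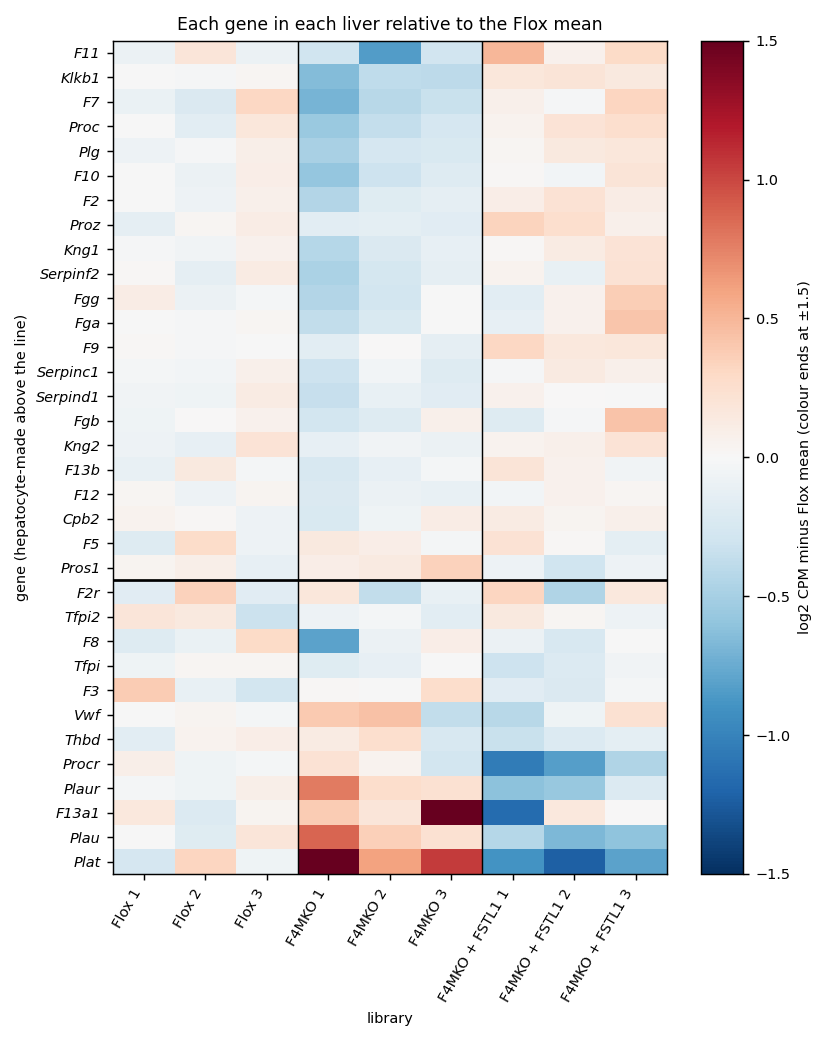
Level of each of the 34 genes in each of the 9 libraries, as log2 CPM minus the mean of that gene in Flox, with colours ending at ±1.5. Rows above the black line are hepatocyte-made. Hepatocyte-made genes are mostly lower in F4MKO, and Plat, Plau and Plaur are higher in F4MKO than in F4MKO + FSTL1.

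The effect of deleting Irf4 in muscle was examined by comparing F4MKO with Flox. None of the 34 genes passed the threshold in edgeR's quasi-likelihood test, beside 0.271% of all tested genes, while 9 had an unadjusted p under 0.05 (16.9% of all tested genes did). DESeq2 called 1 of the 34, Plat, beside 338 of the 24008 listed genes. Among hepatocyte-made genes 20 of 22 had log2 fold changes below 0, with a median of -0.20, and among the others 8 of 12 were above 0, with a median of 0.06. Over all tested genes 50.6% were below and 49.4% above 0, with a median of -0.0030. With library totals the hepatocyte-made median was -0.09 against an all-gene median of 0.11. Separate ranges in Flox and F4MKO were seen for 16 of 34 genes, beside 21.8% of all tested genes. This comparison shares its F4MKO libraries with the preceding one, and no relation between the comparisons was tested.

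Plat had 1.60, 2.38 and 1.82 CPM in Flox, below each of the F4MKO values of 6.65, 2.89 and 3.95 CPM. The log2 fold change was 1.22 (SE 0.30, adjusted p = 0.0890). DESeq2 gave 1.21 (adjusted p = 0.0169). Without the filter on low counts edgeR gave 1.21 (adjusted p = 0.00955). Cholangiocyte markers were higher for 7 of 7 tested in F4MKO and 3 passed the threshold, with sums of 52.0 to 91.6 CPM in Flox and 167 to 446 CPM in F4MKO, and their part in the Plat difference was not tested. Stellate cell markers were above 0 for 10 of 10 with none past the threshold and 4 at an unadjusted p under 0.05.

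Plau had 2.45, 2.17 and 2.80 CPM in Flox (log2 fold change 0.51, adjusted p = 0.267) and Plaur 1.47, 1.43 and 1.60 CPM (0.45, adjusted p = 0.355), in each case below all F4MKO libraries. Procr, at 2.36, 2.13 and 2.17 CPM in Flox, overlapped with F4MKO (0.01, adjusted p = 0.982).

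Klkb1 had 189, 188 and 194 CPM in Flox, above all F4MKO libraries (log2 fold change -0.47, SE 0.10, adjusted p = 0.0610). F7 had 63.6, 58.9 and 84.9 CPM (-0.49, adjusted p = 0.149) and F11 52.2, 63.2 and 52.5 CPM (-0.46, adjusted p = 0.188), again without overlap with F4MKO. Proc had 476, 431 and 537 CPM (-0.39, adjusted p = 0.158) and Plg 1905, 1987 and 2135 CPM (-0.32, adjusted p = 0.214). Each of these zymogen genes was thus lower in every F4MKO library than in any Flox library, though none passed the test. Fibrinogen chains overlapped between the groups, with Fga at 5007, 4986 and 5133 CPM in Flox (-0.19, adjusted p = 0.562).

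F4MKO + FSTL1 and Flox were compared last, to place the group with FSTL1 overexpression beside the controls. None of the 34 genes passed the threshold, beside 0.00695% of all tested genes, and 4 had an unadjusted p under 0.05, where 13.4% of all tested genes did. DESeq2 called 0 of the 34, beside 284 of the 24008 listed genes. Separate ranges were seen for 7 of 34 genes, beside 18.2% of all tested genes. The 4 were Procr, at 1.31 ± 0.278 CPM with FSTL1 and 2.22 ± 0.123 CPM in Flox (log2 fold change -0.76, adjusted p = 0.193), Plat, at 0.981 ± 0.146 and 1.93 ± 0.398 CPM (-0.98, adjusted p = 0.247), Plau, at 1.66 ± 0.146 and 2.47 ± 0.313 CPM (-0.57, adjusted p = 0.313), and F9, at 266 ± 15.4 and 229 ± 2.27 CPM (0.22, adjusted p = 0.352). In the same comparison 10 of 10 macrophage markers had lower values with FSTL1, 10 at an unadjusted p under 0.05, with sums of 560 to 862 CPM in Flox and 317 to 513 CPM with FSTL1. Stellate cell markers had log2 fold changes below 0 for 10 of 10, 7 at an unadjusted p under 0.05, with sums of 443 to 517 against 288 to 395 CPM. None of either list passed the threshold, and their part in the values of Procr, Plat and Plau was not tested. Klkb1 had 214 ± 3.29 CPM against 190.0 ± 3.09 CPM, without overlap (0.17, adjusted p = 0.503). Over the hepatocyte-made genes 21 of 22 log2 fold changes were above 0, with a median of 0.11, beside 49.9% of all tested genes above and 50.1% below 0, and with library totals 13 of 22 were above 0.

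Further genes of the pathway that are not among the 34 were listed for comparison, 25 in number, of which 21 were tested. Between F4MKO + FSTL1 and F4MKO, 7 of the 21 (33.3%) passed the threshold, beside 14.4% of all tested genes. Of the 7, 2 were higher, beside 3.21% of all tested genes, and 5 lower, beside 11.2%. Hrg, histidine-rich glycoprotein, a hepatocyte product that binds plasminogen and heparin and lies 24.2 kb from Kng2 on chromosome 16, had 727, 775 and 795 CPM in F4MKO and 1342, 1191 and 1249.9 CPM in F4MKO + FSTL1 (1.65-fold higher, adjusted p = 0.00213). Serpine2, protease nexin-1, an inhibitor of thrombin and plasminogen activators, was 2.23-fold higher (adjusted p = 0.0281).

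The lower genes included a secreted ligand, surface proteins and a receptor. Gas6, a vitamin K-dependent ligand of TAM receptors, had 102, 85.6 and 79.0 CPM in F4MKO and 35.7, 30.6 and 35.4 CPM in F4MKO + FSTL1 (2.63-fold lower, adjusted p = 0.000356). Anxa2, annexin A2, a surface protein that binds tissue-type plasminogen activator and plasminogen, was 3.30-fold lower (adjusted p = 0.00302). Fgl2, a fibrinogen-like prothrombinase, was 2.95-fold lower (adjusted p = 0.00184), and F2rl1, protease-activated receptor 2, 5.45-fold lower (adjusted p = 0.00855). The F2rl1 value rests on only 77, 40 and 31 counts in F4MKO and 10, 4 and 7 in F4MKO + FSTL1. None of the 5 genes of the vitamin K cycle and factor secretion (Ggcx, Vkorc1, Vkorc1l1, Lman1 and Mcfd2) passed the threshold there. An unadjusted p under 0.05 was reached by 1 of them, beside 35.3% of all tested genes. None of the 21 passed the threshold between F4MKO and Flox, where 9 had an unadjusted p under 0.05, beside 16.9% of all tested genes. Nor did any pass between F4MKO + FSTL1 and Flox, where 4 had an unadjusted p under 0.05, beside 13.4%.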

How the data were processed

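RNA from 9 mouse livers was sequenced, 3 Flox, 3 F4MKO and 3 F4MKO + FSTL1. Per the labels and methods, the authors trimmed 150 bp paired-end BGIseq500 reads with Trim Galore 0.6.7, aligned them to mm10 with HISAT2 2.2.1, and deposited raw counts per gene from featureCounts 2.0.1. The annotation, use of strand and handling of reads that map to several genes are not given in the sources used here. Groups follow the labels.

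Counts were fitted in R 4.3.3 with edgeR 4.0.16 (filterByExpr, minimum count 10 and total 15, TMM normalization, quasi-likelihood test, 9 libraries, 1 mean per group, prior count 2). P-values were adjusted by Benjamini-Hochberg over 14379 genes, and a gene was called at an adjusted p under 0.05 and a fold change above 1.5. Separate mice stand behind replicates, and p-values cover the spread between them. Values are CPM after TMM, divided by the GENCODE vM21 principal transcript length, the longest where tied, where levels are compared between genes. The fit was tested on simulated data.

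The alternatives were DESeq2 1.42.0, its size factors, library totals, no filter, 6 libraries, the replicate number as a block, no fold threshold and each library left out. The 34 genes, the other lists and the tests were chosen with earlier results of these data known. By rule, all 34 genes could be named, and other listed genes where called. Itga2b and the vitamin K cycle and secretion genes were named after their values were seen. The values of 1 listed gene are not reported here.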

Additional observations from a re-analysis of the deposited data

How the results depend on the processing

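Among the 7 genes called between F4MKO + FSTL1 and F4MKO, 105 values under alternatives gave 88 calls, 17 losses and 0 reversals. Hepatocyte-made calls numbered 3, against 0 with library totals, where the folds fell below 1.5, and 10 with no fold threshold. They ranged from 1 to 4 with a library left out (1 without F4MKO replicate 1), and the 4 other calls ranged from 2 to 4 (2 without F4MKO replicate 1, F4MKO + FSTL1 replicate 1 or F4MKO + FSTL1 replicate 2). Genes called over the whole table ranged from 1295 to 2216. Between F4MKO and Flox, 39 genes were called, against 338 with DESeq2, 59 with library totals, 478 without the filter, 11 with 6 libraries and 0 to 100 with a library left out, and 1 stromal or immune-made gene, Plat, was called with DESeq2 and without the filter. Between F4MKO + FSTL1 and Flox 1 gene was called, against 284 with DESeq2, 2 with its size factors, 2 with library totals, 379 without the filter, 0 with 6 libraries and 0 to 101 with a library left out. For these comparisons with Flox, hepatocyte-made and other calls among the 34 genes stayed at 0 with each library left out. The cause of these shifts was not tested.

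The labels give no shared litter or day for a replicate number, and correlations of same-numbered deviations, from -0.0985 to 0.304, were not above 0.1 in every pair, so the libraries were not treated as paired. In 13 of 18 comparisons of a library with another group, it correlated best with its own number, a hint of a link from the data and not from the design. With the replicate block 134 genes were called between F4MKO and Flox, 15 between F4MKO + FSTL1 and Flox, and 2170 between F4MKO + FSTL1 and F4MKO, where 3 hepatocyte-made and 4 other genes were called.

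Uncalled log2 fold changes near 0 reversed in places. F9 between F4MKO and Flox was 0.023 with library totals. Procr there was between -0.10 and 0.14 with a library left out, and below 0 without Flox replicate 2 (-0.018), Flox replicate 3 (-0.0033), F4MKO replicate 1 (-0.10) or F4MKO replicate 2 (-0.0079). F10 between F4MKO + FSTL1 and Flox was -0.020 with library totals and between -0.0027 (without F4MKO + FSTL1 replicate 3) and 0.11 with a library left out. Plat, Plau, Plaur and Procr rest on 17 to 188 counts per library, which limits their precision.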

Other observations

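The ratio of Fga to Fgb counts was 1.31, 1.24 and 1.22 in Flox, 1.17, 1.22 and 1.19 in F4MKO, and 1.32, 1.32 and 1.25 in F4MKO + FSTL1 libraries. F4MKO and F4MKO + FSTL1 did not overlap (exact two-sided permutation test, p = 0.1, the smallest possible with 3 against 3, and 0.429 after adjustment over 15 tests). Fgb and Fgg counts gave ratios between 1.36 and 1.73 over the 9 libraries. Kng2 made up 10.9%, 10.95% and 12.4% of the reads of both kininogen genes in Flox, 13.7%, 12.6% and 11.6% in F4MKO, and 11.7%, 11.1% and 11.5% in F4MKO + FSTL1 (exact two-sided permutation test of F4MKO + FSTL1 against F4MKO, p = 0.2, adjusted p = 0.429).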
